A study of Mus musculus with 2 samples.

Results

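Cycling cells of the phagocyte gate were examined in injured mouse muscle by scRNA-Seq. A barcode was a member if it had more than 200 genes, under 10% of its UMIs (unique molecular identifiers, 1 per captured mRNA molecule) from mitochondrial genes, UMIs of at least 4 of the 7 cycle genes Mki67, Top2a, Cdk1, Ccnb1, Birc5, Ube2c and Cenpf, UMIs of at least 2 of the 5 phagocyte genes C1qa, C1qb, Csf1r, Cd68 and Lyz2, and no UMI of Pdgfra, Pax7 or Sox10. The rule found 295 cells, 126 in the IgG library and 169 in the SPP1-nAb library, among 13904 and 17669 cells of the phagocyte gate and 48143 barcodes past the filters in all. The members were thus chosen by the measured UMIs of the rule genes, which are given below as a description only.

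The study compared leg muscle of mice injected with an antibody that neutralizes osteopontin, the secreted protein encoded by Spp1 (SPP1-nAb), and of mice given goat anti-mouse IgG, 7 days after bilateral crush of the peroneal nerve (7 dpi). Both groups were C57BL/6J mice, per the study's methods S100GFP-tg males of 10 to 16 weeks, and each injection held 2 µg of antibody in 10 µL, repeated every 2 days. Each condition was 1 library from pooled animals, so no test between conditions was possible. Every interval below is a 95% interval for counting error only. Intervals of CPM ratios take pooled UMIs as independent and leave out the spread between cells. Differences between animals, sorts and runs cannot be told apart from the treatment. Sample titles name S100GFP-positive cells, whereas the sorting protocol collected live GFP+ and GFP- cells. The IgG library held 23779 barcodes with a median of 3783 UMIs, and the SPP1-nAb library held 25069 with a median of 4722.

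Cells divide by copying their DNA in S phase and separating it in mitosis, and the genes of each step are transcribed in turn: helicase and polymerase genes first, cyclin B, spindle and kinetochore genes later. Many of the later genes carry a CHR element and CCAAT boxes in their promoters, which the DREAM and MuvB complexes and NF-Y read, and many of the earlier ones carry E2F sites. Macrophages in tissue can divide locally under CSF1 or IL-4, and the transcription factor MAF holds back this division. Conventional dendritic cells (cDC) also divide in tissue, from precursors that respond to FLT3 ligand.

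The rule genes lie apart in the genome and were read here as a group because they rise together. On GRCm39, Mki67 (a marker protein of dividing cells) is at chr7:135291513-135318299, Top2a (topoisomerase II alpha, which untangles DNA) at chr11:98883769-98915062, Cdk1 (the kinase that starts mitosis) at chr10:69170976-69236595, and Ccnb1 (its partner cyclin B1) at chr13:100915153-100923116. Birc5 (survivin) is at chr11:117740040-117746581, Ube2c (which tags mitotic cyclins for destruction) at chr2:164611768-164620742, and Cenpf (a kinetochore protein) at chr1:189372752-189420315. The promoters of 4 of them and of Mcm6, a helicase subunit of the replication list, are printed to show the letters that such genes share. Each run is the 120 bases before the RefSeq start site on GRCm38.p6, 5′ to 3′ on the gene's strand, with matches to TTTGAA (CHR), CCAAT, TTTGGCGC or TTTCGCGC (E2F) on either strand in capitals.
Cdk1, chr10:69352913-69353032, minus strand: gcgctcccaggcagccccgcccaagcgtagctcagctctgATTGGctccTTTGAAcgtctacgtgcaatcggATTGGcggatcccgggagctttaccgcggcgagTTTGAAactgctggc
Ube2c, chr2:164769809-164769928, plus strand: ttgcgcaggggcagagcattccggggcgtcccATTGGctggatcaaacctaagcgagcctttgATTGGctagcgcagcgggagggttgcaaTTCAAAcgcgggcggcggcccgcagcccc
Top2a, chr11:99024190-99024309, minus strand: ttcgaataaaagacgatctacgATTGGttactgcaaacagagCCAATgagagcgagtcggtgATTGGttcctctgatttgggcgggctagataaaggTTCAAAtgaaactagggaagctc
Ccnb1, chr13:100786487-100786606, minus strand: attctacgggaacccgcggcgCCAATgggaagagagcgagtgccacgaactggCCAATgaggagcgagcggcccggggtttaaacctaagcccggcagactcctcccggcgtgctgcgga
Mcm6, chr1:128359706-128359825, minus strand: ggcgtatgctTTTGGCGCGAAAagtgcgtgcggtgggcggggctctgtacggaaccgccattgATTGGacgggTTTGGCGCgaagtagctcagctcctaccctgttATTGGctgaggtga

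Cdk1, Ube2c and Top2a held the CHR letters with CCAAT boxes upstream, Ccnb1 held 2 CCAAT boxes and no CHR match in this stretch, and Mcm6 held E2F letters in place of a CHR. Over windows of 300 bases (250 before the start and 50 after it), TTTGAA occurred in 21 of 29 promoters of the mitosis list (72.4%), in 3 of 25 of the replication list (12%) and in 18.1% of 27025 RefSeq promoters. The E2F letters occurred in 7 of 25 promoters of the replication list (28.0%), in 0 of 29 of the mitosis list and in 0.833% of all. CCAAT occurred in 75.9% of the mitosis list, 56.0% of the replication list and 37.9% of all. A match describes these letters only.

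The cycle genes set the members apart. Top2a was at 1195 CPM (UMIs of the gene per 1000000 UMIs) in cycling cells and 12.7 CPM in other cells of the gate in the IgG library, and at 944 and 11.6 CPM in the SPP1-nAb library. Mki67 was at 898 against 20.8 CPM in IgG and at 656 against 25.2 CPM in SPP1-nAb. Ccnb1, the sparsest of the 7, had a UMI in 41.3% of cycling cells in IgG and 47.3% in SPP1-nAb, and in 0.160% and 0.269% of other cells. Pdgfra, Pax7 and Sox10 were at 0 by the rule. All 7 were far lower in the rest of the gate, which the choice of cells fixes.

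Members just inside and just outside the threshold differed in mitosis genes more than in replication genes. In IgG, the 58 cells with 3 rule genes had a median of 12.5 of the 30 replication genes and 6 of the 36 mitosis genes, and the 38 cells with 4 rule genes had 14 and 13. In SPP1-nAb, the 64 cells with 3 rule genes had 10 and 6, and the 46 cells with 4 rule genes had 13 and 13.5. Cells with all 7 rule genes (23 in IgG and 32 in SPP1-nAb) had fewer replication genes, a median of 8 in both libraries, and the most mitosis genes, 25 and 23. Outside the rule, 99 other cells in IgG and 135 in SPP1-nAb had at least the cycling median of replication genes (12 and 11), 21 and 23 of them with no rule gene at all. The rule, built mostly on late genes, therefore left out cells with as many replication genes as the median member had.

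**Figure D1:**
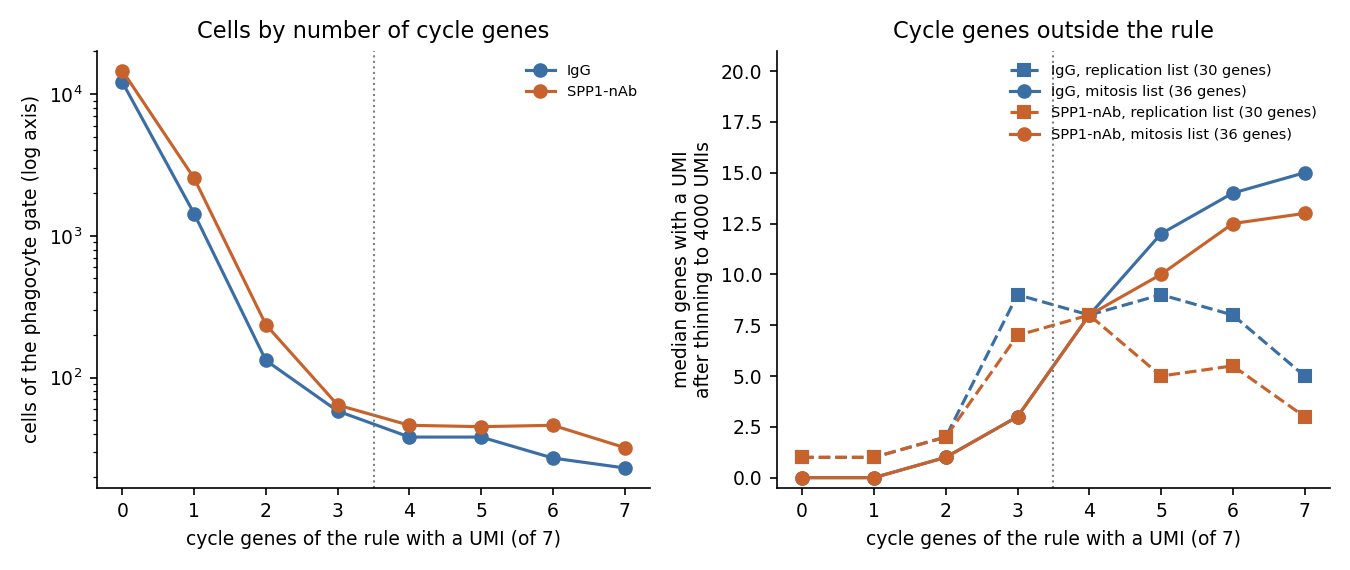
Left, number of cells of the phagocyte gate (log axis) by the number of the 7 cycle genes of the rule with a UMI, in the IgG and SPP1-nAb libraries. Right, the median number of replication and mitosis genes with a UMI after each cell was thinned to 4000 UMIs, with the dotted line between 3 and 4 genes at the threshold of the rule. Mitosis genes climb up to 7 rule genes, to 15 in IgG and 13 in SPP1-nAb, whereas replication genes peak between 3 and 5.

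Each step of the cycle was represented among the members. Of the lists, 23 of the 24 replication genes that could be read were at least 1.5 times higher in cycling cells in both libraries, as were 30 of 30 mitosis genes and 11 of 11 chromatin genes. Over all genes, 741 of 6255 (11.8%) passed that fold upward and 752 (12%) downward, and since the contrast is that of the rule nothing is read from these counts. Pcna, the sliding clamp of DNA polymerase, was at 263 CPM in cycling and 104 CPM in other cells in IgG, and at 269 and 105 CPM in SPP1-nAb. Rrm1, a subunit of the enzyme that makes deoxynucleotides, was at 204 against 15.4 CPM and 159 against 14.9 CPM. Nusap1, a spindle protein, was at 420 against 2.35 CPM and 324 against 1.82 CPM. Stmn1, which destabilizes microtubules, had a UMI in 97.6% and 99.4% of cycling cells, and after thinning to 2000 UMIs in 83.3% and 76.3%, against 4.20% and 4.84% of other cells and 1.72% and 4.32% of mesenchymal cells, a type not in the gate. Outside the cycle lists, the 10 genes furthest up in both libraries were 5 histone genes of the Hist1 cluster (Hist1h3c, Hist1h2ab, Hist1h1b, Hist1h2ap and Hist1h2ae) and Pbk, Esco2, Depdc1a, Aspm and Neil3, which act in mitosis, cohesion or DNA repair. Hist1h1b, a linker histone, was at 769 against 4.11 CPM in IgG and 431 against 2.16 CPM in SPP1-nAb. Histone genes of this cluster are near copies, so reads may be split between them.

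S-phase and mitotic transcripts were not carried by separate cells alone. The mitosis list made up a median of 66.7% of the UMIs of both lists per cell in IgG (9.09% to 100%) and 71.4% in SPP1-nAb (10.8% to 100%). Replication UMIs outnumbered mitosis UMIs in 35 of 126 cells in IgG (27.8%) and 52 of 169 in SPP1-nAb (30.8%). Spearman's rho between the numbers of replication and mitosis genes per cell was -0.04 in IgG (126 cells of 1 library) and -0.02 in SPP1-nAb (169 cells of 1 library), a description over cells that share a library and differ in depth. Members rich in replication genes, in mitosis genes and in both were thus found in each library.

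**Figure D2:**
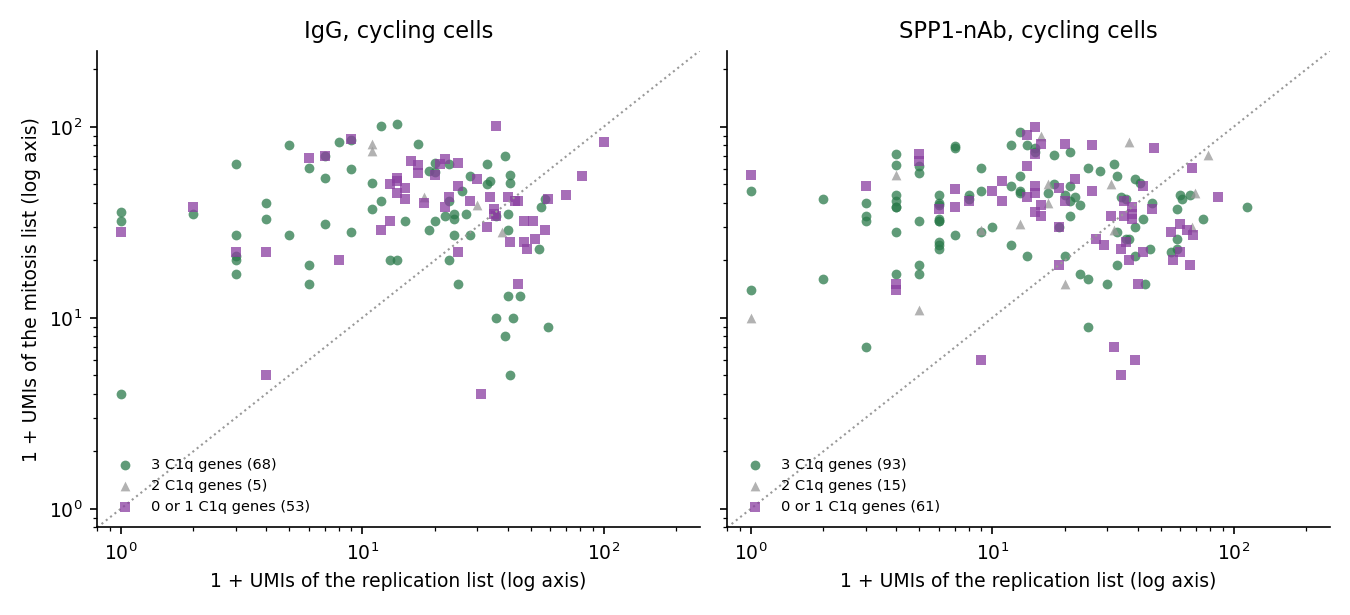
UMIs of the replication list (x axis) and of the mitosis list (y axis) per cycling cell, both as 1 + UMIs on log axes, in the IgG (left) and SPP1-nAb (right) libraries, with cells marked by how many of C1qa, C1qb and C1qc have a UMI. Points above the dotted line hold more mitosis than replication UMIs, and cells with 3 C1q genes and with 0 or 1 lie on both sides of it in each library.

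Genes that drive or restrain entry into the cycle were read next. Of 7 readable G1 drivers, 4 were at least 1.5 times higher in both libraries: Ccnd1 (cyclin D1), Cdk4, Cdk2 and E2f3. Ccnd1 was at 126 against 75.3 CPM in IgG and 103 against 48.6 CPM in SPP1-nAb, and Cdk4, its kinase partner, at 85.2 against 43.3 CPM and 99.0 against 54.0 CPM. Of 11 readable brakes, 3 were lower in both libraries, among them Maf and Btg1, and 2 were higher, beside 12% lower and 11.8% higher over all genes. Maf was at 413 against 951 CPM in IgG and 272 against 642 CPM in SPP1-nAb. After thinning to 2000 UMIs, Maf was found in 38.1% of cycling cells in IgG and 33.1% in SPP1-nAb, against 66.5% and 56.1% of all other cells. Mesenchymal cells were at 33.9% and 24.4%. By class, it was found in 67.6% and 59.1% of cycling cells with 3 C1q genes, and in 1 of 53 and 0 of 61 with 0 or 1. Other cells were not split by C1q genes here, so Maf was not compared within a class. Btg1, an antiproliferative factor, was at 600.0 against 1120 CPM and 766 against 1315 CPM. Among the brakes that were higher was Cdkn2d, a CDK inhibitor of the INK4 family, at 119 against 44.7 CPM and 115 against 36.6 CPM. Genes for nucleotide synthesis and ribosome building, which growing cells need, were also higher: 5 of 6 and 5 of 9 readable genes passed the fold, among them Mthfd2 at 72.6 against 23.8 CPM in IgG and 79.4 against 24.4 CPM in SPP1-nAb.

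Receptors for the growth factors of phagocytes were not higher as a group. Of 8 readable receptors, 0 passed the fold upward and 5 downward, beside 11.8% and 12% of all genes. Csf1r, the CSF1 receptor and a gene of the rule, was at 143 against 353 CPM in IgG and 158 against 324 CPM in SPP1-nAb. Csf2rb, the shared chain of the GM-CSF receptor, was at 92.4 against 109 CPM and 187 against 182 CPM. Flt3 and Kit, receptors of dendritic and stem cell precursors, were too sparse for the count of readable genes, with Flt3 at 34.1 against 6.62 CPM in IgG and 21.8 against 4.74 CPM in SPP1-nAb.

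The data went against a label of macrophages for part of the members. All 3 C1q genes (subunits of complement C1q, made by tissue macrophages) had a UMI in 68 of 126 cycling cells in IgG (54.0%, 44.9 to 62.9) and 93 of 169 in SPP1-nAb (55.0%, 47.2 to 62.7), and 0 or 1 of them in 53 (42.1%) and 61 (36.1%). Among other cells of the gate 24.2% and 26.7% had 0 or 1. The cycling cells were deeper, at a median of 8385 and 10188 UMIs against 4112 and 5137. After thinning each cell to 2000 UMIs, 50.8% and 47.3% of cycling cells had 0 or 1 C1q gene, against 28.1% and 31.5% of other cells. The split by C1q genes, and the 7 dendritic-cell genes Xcr1, Clec9a, Itgae, Cd209a, Klrd1, Flt3 and Zbtb46 used below, were chosen after the values were seen.

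Cycling cells with 0 or 1 C1q gene mostly carried dendritic-cell genes. At least 2 of the 7 had a UMI in 38 of 53 in IgG (71.7%, 57.7 to 83.2) and 35 of 61 in SPP1-nAb (57.4%, 44.1 to 70.0), against 5 of 68 (7.35%) and 7 of 93 (7.53%) of cycling cells with 3 C1q genes, and 11.7% and 8.69% of other cells with 0 or 1. Other cells with 3 C1q genes were at 0.973% and 0.806%, at a lower depth, so the genes were found more often in cycling cells of both classes. The cDC1 list was above other cells of the same class in both, at log2 ratios of 1.14 (0.98 to 1.29) in IgG and 1.31 (1.18 to 1.45) in SPP1-nAb with 0 or 1 C1q gene, and 1.12 (0.90 to 1.33) and 0.74 (0.56 to 0.92) with 3. After thinning to 2000 UMIs the share over all cycling cells was 9.52% in IgG and 8.28% in SPP1-nAb, against 2.04% and 1.60% of other cells. Xcr1, the chemokine receptor of cDC1, was at 48.2 CPM in cycling cells with 0 or 1 C1q gene and 12.3 CPM in those with 3 in IgG, and at 75.6 and 3.36 CPM in SPP1-nAb. Cd209a, a lectin of cDC2 and monocyte-derived cells, was at 383 and 3.53 CPM in IgG and at 92.7 and 31.4 CPM in SPP1-nAb. Other cells with 0 or 1 C1q gene had 168 CPM of Cd209a in IgG and 109 CPM in SPP1-nAb, so that in SPP1-nAb the cycling cells were not above them. The cDC2 list was at a log2 ratio of 0.89 (0.73 to 1.05) to those cells in IgG and -0.15 (-0.37 to 0.069) in SPP1-nAb. H2-Aa, an MHC class II chain, had a UMI in 53 of 53 and 55 of 61 of the cells with 0 or 1. For comparison, Xcr1 was found in 0.0840% of mesenchymal cells in IgG and 0.0919% in SPP1-nAb after thinning.

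Macrophage genes showed the reverse pattern. Adgre1, which encodes F4/80, was at 217 CPM in cycling cells with 3 C1q genes and 28.1 CPM in those with 0 or 1 in IgG, and at 249 and 11.4 CPM in SPP1-nAb. Mertk, a receptor for dying cells, was at 67.0 and 2.01 CPM in IgG and at 57.2 and 4.28 CPM in SPP1-nAb. Apoe, a lipid carrier, was at 2986 and 80.3 CPM in IgG and at 3527 and 148 CPM in SPP1-nAb, whereas other cells with 3 C1q genes had 8229 and 8120 CPM. The share of cells that cycled was 0.722% (0.561 to 0.914) of those with 3 C1q genes and 1.57% (1.18 to 2.04) of those with 0 or 1 in IgG, and 0.817% (0.660 to 1.00) and 1.29% (0.987 to 1.65) in SPP1-nAb. The members are therefore named here by their rule.

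**Figure D3:**
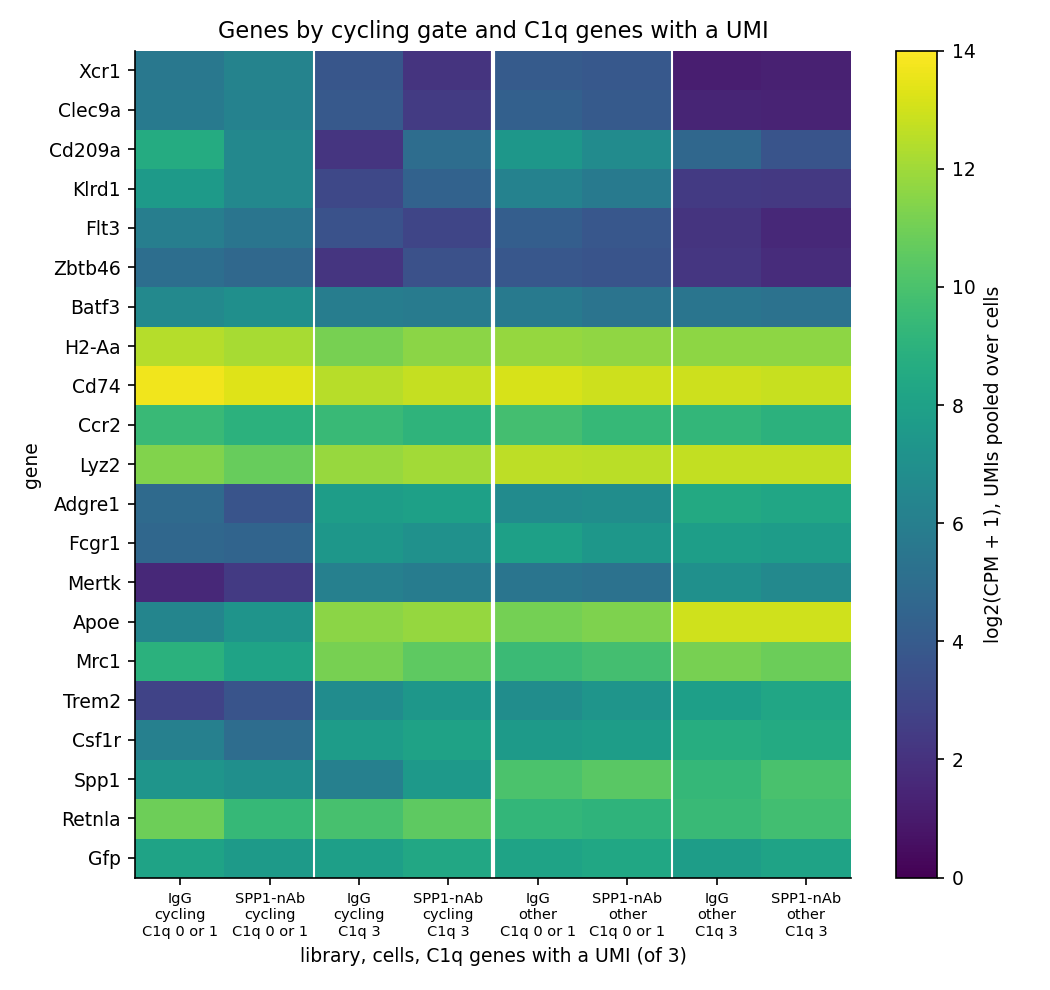
Level of genes as log2(CPM + 1) of UMIs pooled over cells, by library, cycling gate and number of C1q genes with a UMI. In cycling cells, Xcr1, Clec9a, Cd209a, Klrd1 and Flt3 are brighter in columns with 0 or 1 C1q gene, and Adgre1, Mertk, Apoe, Mrc1 and Trem2 in columns with 3.

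Markers of still other cell types were also read in the members. The sort took live cells, GFP+ and GFP-, with no gate on cell type. In IgG, summed levels were 37.7 CPM for 8 neutrophil genes, 15.2 CPM for 8 T and NK genes and 30.5 CPM for 7 myogenic genes. In SPP1-nAb they were 1735, 100 and 146 CPM. Of the 3104 neutrophil UMIs in SPP1-nAb, 2790 came from 1 cell, with S100a9 the most abundant gene at 1655 UMIs. The T and NK genes were led by Gzma at 60 UMIs, all of them in 5 cells, with 5 of 8 genes at 0 in IgG and none at 0 in SPP1-nAb. The myogenic genes were led by Myog at 76 UMIs in 6 cells, and 7 cells had at least 3 of the genes, with Pax7 at 0 by the rule in both libraries. Fibroblast genes were lower than in other cells, 106 against 362 CPM in IgG and 123 against 305 CPM in SPP1-nAb. At least 2 of these 7 genes were nevertheless found in 21 of 126 cycling cells in IgG (16.7%) and 28 of 169 in SPP1-nAb (16.6%), against 10.1% and 10.8% of other cells at full depth, and after thinning in 1.59% and 1.18% against 3.42% and 2.88%. Their most abundant gene was Gsn, with Pdgfra at 0 in both libraries, and at least 3 of the genes were found in 3 and 4 cycling cells. The top 10% by doublet score held 34 of 126 cycling cells in IgG (27.0%) and 35 of 169 in SPP1-nAb (20.7%), against 12.3% and 11.4% of other cells. Outside the gate, UMIs of 2 or more phagocyte genes occurred in 14.0% of mesenchymal cells in IgG and 28.8% in SPP1-nAb, and in 5.41% and 26.2% of T and NK cells. At least 4 cycle genes were found in 18.9% and 24.6% of T and NK cells. How many members are doublets or other cells with free phagocyte RNA was not tested.

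In both libraries 163 barcode sequences occurred, of which 0 marked a cycling cell in both. The cycling share of the phagocyte gate was 0.906% (0.755 to 1.08) in IgG and 0.956% (0.818 to 1.11) in SPP1-nAb, a difference of 0.0503 percentage points (-0.170 to 0.266). With every cell thinned to 2000 UMIs before the gates, it was 39 of 12165 cells (0.321%) and 47 of 15568 (0.302%), with 1099 and 1121 shallower cells left out. At 4000 UMIs it was 0.983% and 0.771%, a difference of -0.211 points (-0.504 to 0.0604). No difference between the libraries was detectable beyond counting error at any of these depths, and the direction changed with depth.

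State genes of phagocytes, which the rule did not use, set cycling cells apart in level. Of 9 state lists, 5 were lower in cycling cells in both libraries with intervals that exclude equality, 3 were higher, and the Gpr34/Fcrls list was lower in IgG only, at a log2 ratio of -0.27 (-0.42 to -0.12), and at -0.13 (-0.28 to 0.02) in SPP1-nAb. In IgG the Gpr34/Fcrls ratio turned to 0.50 without cells that had 2 markers of another cell type. That filter removed cells with 2 genes of any of 15 lists, those of dendritic cells among them. It left 47 cycling cells in IgG and 60 in SPP1-nAb. The Gpr34/Fcrls ratio in IgG also turned to 0.44 and 0.17 after thinning to 4000 and 2000 UMIs before the gates. Without cells that had 2 dendritic-cell genes it was 0.15. The inflammatory list was at 5269 against 11038 CPM in IgG and 5381 against 12786 CPM in SPP1-nAb, with 7 of 8 genes lower in both, beside 12% of all genes. The log2 ratio was -0.50 (-0.55 to -0.46) in IgG and -0.80 (-0.83 to -0.76) in SPP1-nAb among cells with 3 C1q genes, and -2.14 (-2.22 to -2.07) and -2.04 (-2.10 to -1.98) among those with 0 or 1. Cxcl2, a neutrophil chemokine, was at 3863 against 7611 CPM and 3514 against 8239.5 CPM. Thbs1, a matricellular protein, was at 81.6 against 549 CPM and 129 against 967 CPM, with 45.1% of its IgG UMIs in 1 cell. Over the 8 genes the median log2 ratio was -2.31 and -2.05, where it was -0.0033 and -0.013 over all readable genes.

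Lipid-handling genes were lower as well, at 1651 against 4238 CPM in IgG and 2656 against 6367 CPM in SPP1-nAb, with 7 of 8 genes past the fold, beside 12% of all genes. Fabp5, a fatty acid carrier, was at 261 against 1504 CPM and 436 against 2518 CPM. Gpnmb, a glycoprotein of lipid-laden macrophages, was at 6.28 against 106 CPM and 29.6 against 188 CPM. Trem2, a lipid receptor, was at 61.0 against 205 CPM and 98.4 against 266 CPM. The lower levels held in both libraries, and among cells with 3 C1q genes the list was at a log2 ratio of -1.13 (-1.22 to -1.04) in IgG and -1.17 (-1.23 to -1.11) in SPP1-nAb. Cells with at least 2 of the 8 genes after thinning to 2000 UMIs made up 38.1% of cycling and 47.9% of other cells in IgG, and 50.3% and 65.7% in SPP1-nAb.

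Summed over their genes, the resident and classical monocyte lists were lower by less over the whole gate. The resident list was at 2412 against 3457 CPM in IgG and 1512 against 2547 CPM in SPP1-nAb, and among cells with 3 C1q genes its log2 ratio was -0.10 (-0.16 to -0.04) and -0.27 (-0.33 to -0.21). Without cells that had 2 markers of another cell type, dendritic cells included, it was positive, at 0.19 (0.12 to 0.27) and 0.19 (0.11 to 0.26). Mrc1, the mannose receptor, was at 1414 against 1819 CPM and 934 against 1600 CPM. The classical monocyte list was at 991 against 1719 CPM in IgG and 928 against 1456 CPM in SPP1-nAb. Of its 6 genes, 4 were lower in both libraries, beside 12% of all genes. Its sum was led by Ccr2, with 1852 UMIs over the cycling cells of both libraries. The median log2 ratio over the 6 genes was -2.49 in IgG and -0.71 in SPP1-nAb. Among classical monocyte genes, Ccr2, the receptor that brings monocytes into tissue, was near equal at 762 against 706 CPM and 560 against 555 CPM, whereas Ly6c2 was at 26.0 against 326 CPM and 99.5 against 161 CPM, and Chil3 at 5.38 against 112 CPM and 37.5 against 344 CPM. Cycling cells thus carried the monocyte receptor at the level of the gate and less of the surface marker.

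Retnla/Ear2 genes were higher over the whole gate, and the direction of the MHC class II list depended on which cells were counted. The MHC class II list was at 20280 against 16357 CPM in IgG and 18274 against 15183 CPM in SPP1-nAb, and 1 of 6 genes, Clec4b1, passed the fold, beside 11.8% of all genes. Among cells with 3 C1q genes its log2 ratio was -0.38 (-0.41 to -0.34) in IgG and 0.04 (0.01 to 0.06) in SPP1-nAb. After thinning to 2000 UMIs before the gates it was -0.30 (-0.39 to -0.21) and -0.32 (-0.40 to -0.23). It was also -0.10 in SPP1-nAb without cells that had 2 dendritic-cell genes, -0.020 in SPP1-nAb without cells that had 2 markers of another cell type, and -0.027 in IgG with 4 of 5 phagocyte genes required. The Retnla/Ear2 list was at 1530 against 762 CPM and 1609 against 990 CPM. Retnla, a secreted protein of IL-4-activated macrophages, was at 1376 against 678 CPM and 1332 against 804 CPM, from 31 of 126 and 43 of 169 cycling cells. Cells with at least 2 genes of that list at 2000 UMIs made up 7.94% against 2.37% in IgG and 14.8% against 5.96% in SPP1-nAb. The circulating monocyte list was sparse, at 67.3 against 43.7 CPM and 110 against 39.4 CPM, with Spn, a sialic acid-rich surface protein, at 50.2 against 7.38 CPM and 25.7 against 4.99 CPM. Spn held 56 of the 75 UMIs of the list in IgG, where each of the other 5 genes was below its level in other cells. In SPP1-nAb, Eno3 held 88 of the 196 UMIs, and Pglyrp1 held 43, of which 67.4% came from 1 cell. Ace, Treml4 and Adgre4 were below their level in other cells in both libraries. Cells with at least 2 genes of the list at 2000 UMIs were 0 of 126 against 0.733% in IgG, and 0.592% against 0.678% in SPP1-nAb, so the shares did not show the higher level.

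The interferon list was lower by more in IgG than in SPP1-nAb. It was at 897 against 1740 CPM in IgG and 785 against 940 CPM in SPP1-nAb, which gave log2 ratios of -0.96 (-1.05 to -0.87) and -0.26 (-0.34 to -0.18). Isg15, a ubiquitin-like protein induced by interferon, was at 266 against 627 CPM and 202 against 360 CPM. Cxcl10, a chemokine for T cells, was at 404 against 344 CPM and 353 against 205 CPM. Over other cells the list fell between IgG and SPP1-nAb by a log2 ratio of -0.89 (-0.90 to -0.88), and over cycling cells by -0.19 (-0.31 to -0.07). By C1q class, the ratio between the libraries was -1.16 (-1.44 to -0.89) in cycling cells with 0 or 1 C1q gene and 0.094 (-0.043 to 0.23) in those with 3. It turned to 0.56 without cells that had 2 markers of another cell type, to 0.26 after thinning to 2000 UMIs and to 0.086 as a mean of per-cell CPM. The ratio of cycling to other cells in SPP1-nAb turned as well, to 0.73 without cells that had 2 markers of another cell type, 0.47 in cells with 3 C1q genes, 0.25 with 4 of 5 phagocyte genes, 0.076 without cells that had 2 dendritic-cell genes and 0.066 after thinning.

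**Figure D4:**
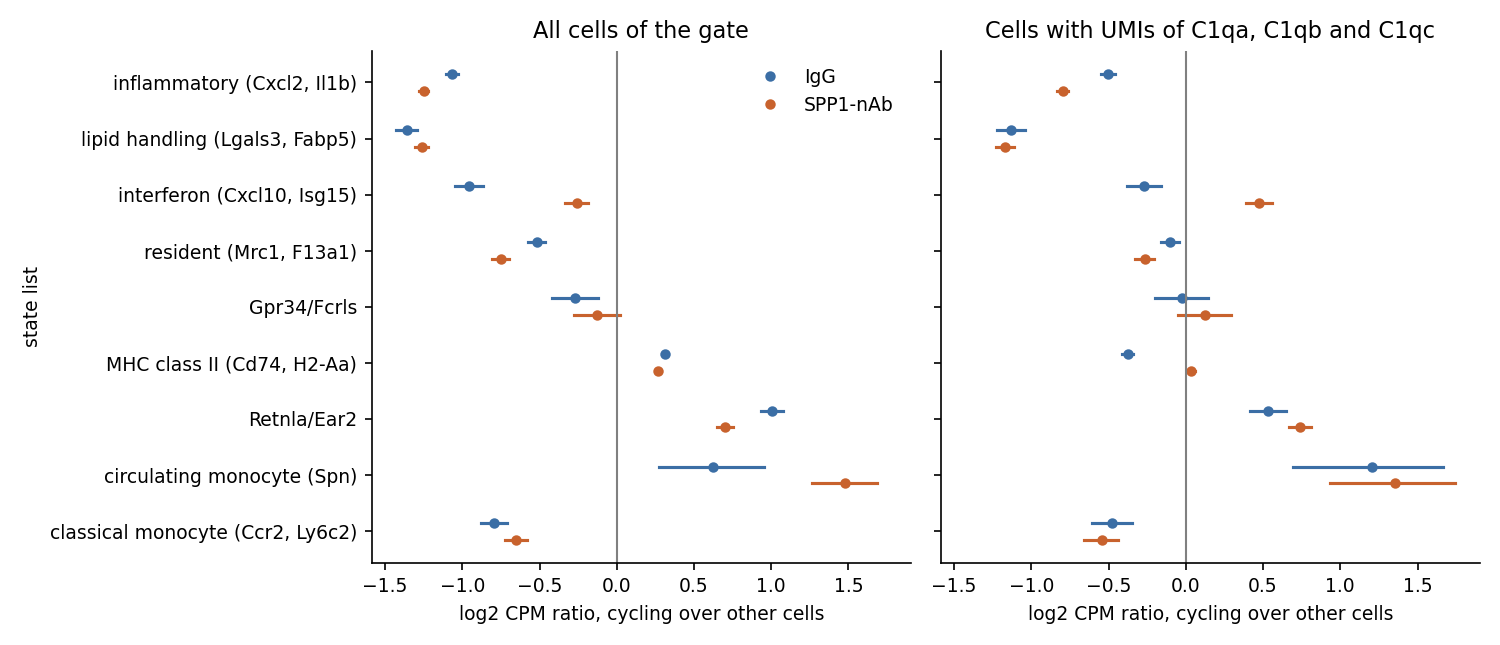
Log2 ratio of CPM, cycling over other cells, for 9 state lists in the IgG and SPP1-nAb libraries, over all cells of the gate (left) and over cells with UMIs of C1qa, C1qb and C1qc (right). Points are ratios of pooled UMIs and bars are 95% counting intervals. The inflammatory, lipid handling, resident and classical monocyte lists lie below 0 in both panels, while the MHC class II list lies above 0 on the left and at -0.38 and 0.04 on the right.

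Outside the cycle lists, the genes furthest down in cycling cells in both libraries included Olr1, Chil3, Col1a1, Thbs4, Fam20c, Thbs1, Gpnmb and Syngr1. Olr1, a receptor for oxidized lipoprotein, was at 2.69 against 68.8 CPM in IgG and 6.15 against 71.6 CPM in SPP1-nAb. Col1a1 and Thbs4 are genes of fibroblasts and tenocytes, found in 4.66% and 2.08% of other cells in IgG, and both ratios changed sign in IgG when cells with 3 rule genes were counted as cycling. In SPP1-nAb the Col1a1 ratio changed sign too, to 0.70 (0.45 to 0.93) with 3 rule genes and to 2.19 (1.28 to 2.97) after thinning to 2000 UMIs before the gates.

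The libraries were then compared within the cycling cells, a contrast the rule did not use. Of 4305 genes with at least 100 UMIs and 20 cells, 172 (4.0%) were at least 1.5 times higher in SPP1-nAb and 199 (4.62%) were lower. Over the same genes in other cells of the gate, 41 (0.952%) and 113 (2.62%) passed. Of the 172, 27 also passed in other cells in the same direction and 20 had the opposite sign there, and of the 199, 54 and 12. Fewer UMIs stand behind the cycling cells (1115035 in IgG and 1788610 in SPP1-nAb, against 60877001 and 95634250), and with 1 library per condition no gene can be called changed by the treatment.

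Cycle genes outside the rule were slightly lower in the SPP1-nAb library. The log2 ratio was -0.27 (-0.34 to -0.20) for the replication list and -0.31 (-0.36 to -0.25) for the mitosis list. For the chromatin list it was -0.18 (-0.21 to -0.14). In other cells it was -0.04 for replication and 0.08 for chromatin. The 7 rule genes were at -0.33 in cycling cells and 0.14 in other cells. They chose the members, so nothing is read from their values. Outside the rule, 1 of 20 readable replication genes and 3 of 30 mitosis genes passed the fold downward, beside 4.62% of all genes: Clspn, a checkpoint adaptor, and Anln, Kif23 and Kif20a, which act when the daughter cells part. Kif23 was at 183 CPM in the IgG library, and 103 CPM with SPP1-nAb. Ube2c, a gene of the rule, was level, at 283 and 285 CPM. The library with the lower CPM had the deeper cycling cells, a median of 10188 against 8385 UMIs, and 4 rule genes are reached at lower levels in a deeper cell. The part of depth in this difference was not tested.

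State lists of cycling cells were compared between the libraries beside the same lists in other cells. Lipid-handling genes were higher in SPP1-nAb, at 1651 and 2656 CPM in cycling cells, a log2 ratio of 0.69 (0.61 to 0.76) beside 0.59 in other cells. Lgals3, a galectin, was at 1131 and 1839 CPM, Fabp5 at 261 and 436 CPM and Trem2 at 61.0 and 98.4 CPM, so 3 of the 4 readable genes passed the fold, beside 4.0% of all genes. Resident genes were lower, at 2412 and 1512 CPM, a log2 ratio of -0.67 (-0.75 to -0.60) beside -0.44, and 5 of 6 readable genes passed, where 4.62% of all genes did. Among them F13a1, coagulation factor XIII, was at 485 and 316 CPM, and Cd163, a hemoglobin scavenger receptor, at 117 and 34.7 CPM. Lyve1, a hyaluronan receptor, was at 94.2 and 22.4 CPM, but 54.3% of its UMIs in IgG came from 1 cell. The summed inflammatory list was at 0.03 (-0.02 to 0.08) in cycling cells and at 0.21 (0.21 to 0.22) in other cells. Its sum was led by Cxcl2, with 10593 UMIs over both libraries, at 3863 and 3514 CPM, whereas 3 of 7 readable genes passed the fold upward, beside 4.0% of all genes, and the median log2 ratio was 0.44. The intervals also held equality in cycling cells for the Retnla/Ear2 list, at 0.072 (-0.015 to 0.16) beside 0.38 in other cells, and for the classical monocyte list, at -0.095 (-0.21 to 0.016) beside -0.24. Both were on opposite sides of equality by C1q class. The Retnla/Ear2 list was at 0.64 (0.50 to 0.77) in cycling cells with 3 C1q genes and -1.13 (-1.27 to -0.99) in those with 0 or 1, and the classical monocyte list at -0.24 (-0.41 to -0.070) and 0.20 (0.035 to 0.36). The circulating monocyte list went the other way, at 0.70 (0.31 to 1.11) beside -0.15, and it was at 1.33 in cycling cells with 0 or 1 C1q gene and -0.15 in those with 3. It turned to -0.39 with 4 of 5 phagocyte genes and to -0.19 without cells that had 2 markers of another cell type. After thinning to 2000 UMIs before the gates it was -0.0062, and all of these intervals held equality. The MHC class II list was at -0.15 (-0.17 to -0.13) in cycling cells beside -0.11 in other cells. By C1q class it was at 0.34 (0.29 to 0.38) in cells with 3 C1q genes. In cells with 0 or 1 it was -0.32 (-0.35 to -0.28).

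**Figure D5:**
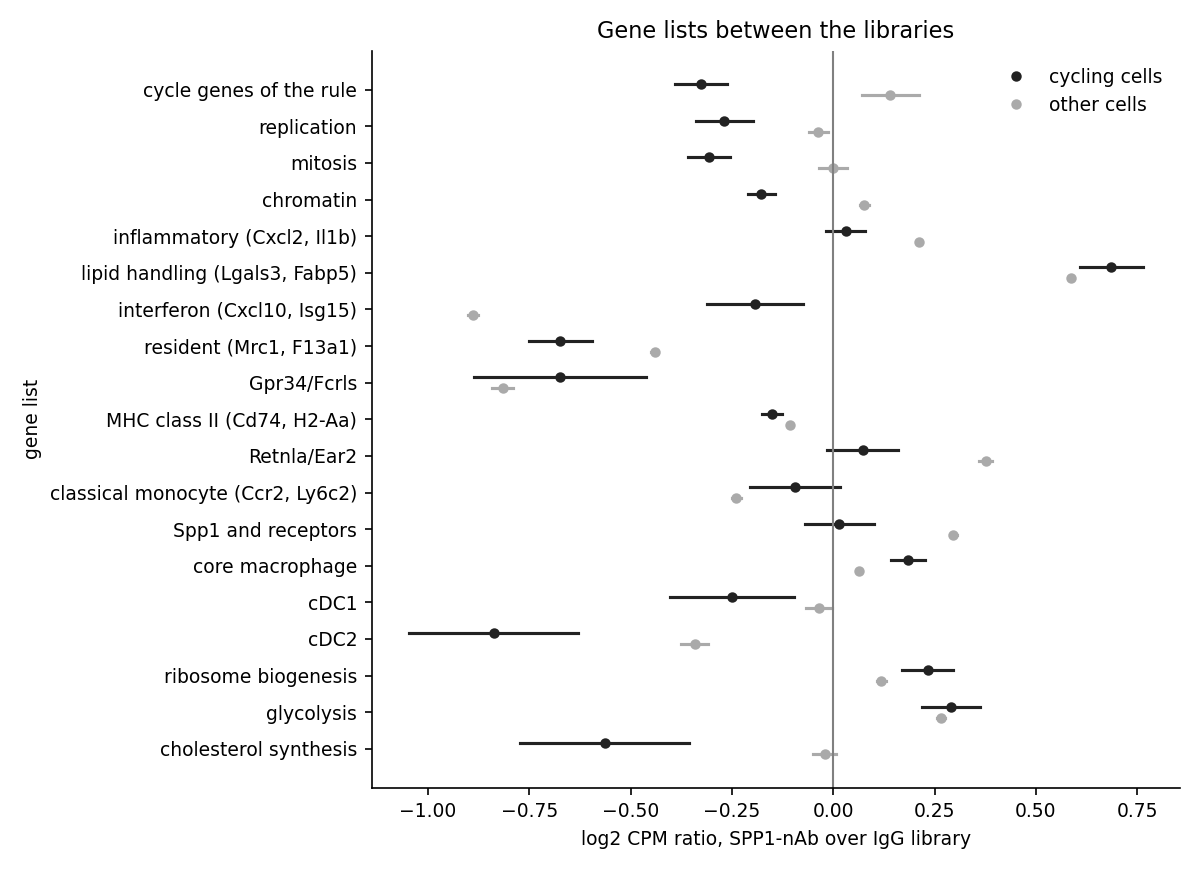
Log2 ratio of CPM, SPP1-nAb over IgG library, for 19 gene lists in cycling cells (black) and other cells of the phagocyte gate (grey), with 95% counting intervals from 1 library per condition. The 4 cycle lists lie between -0.33 and -0.18 in cycling cells and between -0.04 and 0.14 in other cells. The values -0.33 and 0.14 are those of the rule genes, which chose the members. Lipid handling lies above 0 and resident below 0 in both. The interferon list is at -0.19 in cycling cells (0.086 as a mean of per-cell CPM) and -0.89 in other cells.

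Spp1 itself, at chr5:104582165-104589235 on GRCm39, was low in cycling cells of both libraries. In IgG it was at 107 CPM (119 UMIs in 30 of 126 cells), and 240 CPM was its level with SPP1-nAb (430 UMIs in 69 of 169 cells), against 772 and 1135 CPM in other cells. The log2 ratio of SPP1-nAb over IgG was 1.17 (0.88 to 1.48) in cycling cells and 0.56 in other cells. After thinning to 2000 UMIs, 9.52% and 16.0% of cycling cells had a Spp1 UMI, against 20.2% and 29.5% of other cells. Mesenchymal cells were at 5.84% and 8.09%, and whether their Spp1 UMIs are free RNA was not tested. A single cell held 26.1% of the UMIs in IgG, and another 31.9% in SPP1-nAb. Cycling cells with 3 C1q genes had 67.0 and 192 CPM. Those with 0 or 1 had 155 and 123 CPM, a log2 ratio of -0.33 (-0.79 to 0.13). In SPP1-nAb, cells with 3 C1q genes held 171 of the 430 UMIs, the 15 cells with 2 held 173, and those with 0 or 1 held 86. The cell with 31.9% of the UMIs held more than that last class, so it lies in 1 of the others and holds most of its UMIs. Which class that is was not read, so the higher level cannot be assigned to cells with 3 C1q genes. Of the receptors of osteopontin, Cd44 was at 821 against 827 CPM in IgG and 787 against 1009 CPM in SPP1-nAb. Itgav, integrin alpha V, was lower in cycling cells, at 60.1 against 150 CPM and 85.5 against 199 CPM. In the list for SPP1 signaling, 4 of 8 readable genes were lower in both libraries and 0 higher, beside 12% and 11.8% of all genes.

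The genes named here with the largest ratios between the libraries had a UMI in a minority of cycling cells. The widest was Cd163, in 37 of 126 cells in IgG and 25 of 169 in SPP1-nAb. Among those furthest up in SPP1-nAb were Ccl17, Ifitm1, AA467197 and Ly6c2. Ccl17, a chemokine of dendritic cells, was at 20.6 and 178 CPM, from 7 and 13 cells, with 46.5% of the SPP1-nAb UMIs in 1 cell. Ly6c2 was at 26.0 and 99.5 CPM from 13 and 20 cells, whereas in other cells it was lower in SPP1-nAb, at 326 and 161 CPM. Furthest down were Lyz1, Lyve1, Cd163, Runx2 and Cd209a. Lyz1, a lysozyme gene that closely resembles Lyz2 and may share its reads, was at 174 and 40.8 CPM, from 24 and 16 cells. A single cell held 57.5% of its SPP1-nAb UMIs. Runx2, a transcription factor of bone and of some dendritic cells, was at 80.7 and 24.6 CPM, with 38.9% of its IgG UMIs in 1 cell. Its log2 ratio was -1.71, but 0.36 (-0.67 to 1.47) with the cells of highest doublet score removed and 0.30 (-0.85 to 1.51) in cells with 0 or 1 C1q gene. In cells with 3 it was -2.56 (-3.33 to -1.86), from 79 and 21 UMIs. Cd209a was at 174 and 58.7 CPM, at a log2 ratio of -2.05 (-2.48 to -1.63) in cells with 0 or 1 C1q gene and of 3.15 (1.17 to 6.27) in cells with 3, the latter from 2 UMIs in IgG.

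Other gene groups differed between the libraries as follows. Glycolysis genes were higher in SPP1-nAb at 0.29 (0.22 to 0.36) in cycling and 0.27 in other cells, with Pkm, pyruvate kinase, at 199 and 300 CPM. Csf2rb was at 92.4 and 187 CPM, a log2 ratio of 1.02 (0.70 to 1.35) beside 0.74 in other cells. Genes of cholesterol synthesis were at -0.56 in cycling cells (-0.77 to -0.35) beside -0.02 in other cells, and at -0.91 (-1.20 to -0.62) in cycling cells with 0 or 1 C1q gene and -0.16 (-0.49 to 0.18) in those with 3. Over all cycling cells, the 3 of its 11 genes that could be read passed the fold, beside 4.62% of all genes, among them Cyp51 at 52.9 and 33.0 CPM and Idi1 at 50.2 and 26.3 CPM. The reporter transcript Gfp was found in 70.6% and 71.0% of cycling cells and in 44.3% and 56.5% of other cells at full depth, and after thinning in 38.9% and 36.7% against 28.9% and 35.5%, with 9.36% and 10.7% of mesenchymal cells beside them. Its pooled level was 263 and 275 CPM in cycling and 235 and 288 CPM in other cells.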

How the data were processed

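The authors deposited filtered matrices of raw UMI counts per gene and barcode. The submitters' processing notes and the methods name Cell Ranger 8.0.0, the file headers 9.0.1. The build is GRCm39 in the labels. Deposited counts were used as they are, with no ambient-RNA correction. Members and gene lists were chosen with earlier results of these data known. UMIs were summed over cells and divided by the sum over all genes (CPM). Shares have exact Clopper-Pearson 95% intervals, and ratios of CPM exact binomial intervals. Genes between libraries needed 100 UMIs and 20 cells with a UMI, and between cycling and other cells 20 cells and a mean of 50 UMIs after scaling other cells to the cycling total. A ratio of 1.5 was called. Named genes were those of the rule, examples from each list (mostly the more abundant, some chosen after their values were seen), the 5 largest library ratios per direction and the 10 largest cycling ratios per direction outside the cycle lists. A few genes that these rules select are not reported here. Doublets were scored by simulation (30 components, 30 neighbors, 2 simulated per barcode) and kept, with the top 10% removed as an alternative. Thinning drew UMIs without replacement. GENCODE M39 gave coordinates for 31674 of 32287 features. Interval coverage was tested on simulated Poisson counts, which the intervals assume. The simulation held no spread between cells, so it cannot show the coverage in these data. Python 3.11.15, NumPy 2.4.6, SciPy 1.17.1 and scikit-learn 1.9.0 were used.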

Additional observations from a re-analysis of the deposited data

Results flagged for a closer look

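Lists whose level in cycling against other cells lay on opposite sides of equality in the 2 libraries, with both counting intervals away from it, are given here. The differences were not tested, since each condition has 1 library. The neutrophil list had a log2 ratio of -1.87 in IgG and 1.70 in SPP1-nAb, where 1 cell held 2790 of 3104 UMIs. The cholesterol list had 0.31 in IgG and -0.23 in SPP1-nAb. Among cells with all 3 C1q genes, the interferon list had -0.27 in IgG and 0.47 in SPP1-nAb, and the MHC class II list had -0.38 in IgG and 0.036 in SPP1-nAb. Among those with 0 or 1, the cholesterol list had 0.24 and -0.52. Among the 5 and 15 cycling cells with 2, the Retnla/Ear2 list had -0.72 and 1.34, and the glycolysis list -0.59 and 0.19. Barcodes with at least 4 cycle genes outside the phagocyte gate, which no comparison used, numbered 111 in IgG and 145 in SPP1-nAb, of which 57 and 79 had a UMI of Pdgfra, Pax7 or Sox10 and 54 and 66 had too few phagocyte genes.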

How the results depend on the processing

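No paired analysis was possible because each condition has 1 library. Of 14 alternatives, 2 were chosen after seeing the data (cells with UMIs of C1qa, C1qb and C1qc only, and cells with under 2 of the 7 dendritic-cell genes). The cycling share in IgG and SPP1-nAb was 1.32% and 1.32% with 3 of 7 cycle genes, 0.633% and 0.696% with 5 of 7, 0.464% and 0.481% without cells that had 2 markers of another cell type, 0.722% and 0.817% with all C1q genes, 0.614% and 0.714% without dendritic-cell genes, and 0.321% and 0.302% at 2000 UMIs. In IgG it was 0.755% with the highest doublet scores removed. At 4000 UMIs it was 0.771% in SPP1-nAb and the difference was -0.211 points. Of 9 state lists, 3 were lower in both libraries without cells that had 2 markers of another type and without dendritic-cell genes, and 1 was higher at 2000 UMIs and without dendritic-cell genes. Genes past the fold between libraries, higher and lower, numbered 97 and 65 without cells with 2 markers of another type, 13 and 12 at 2000 UMIs, 59 and 72 at 4000 UMIs, 579 and 650 with 30 UMIs per gene, 32 and 20 at a fold of 2, and 104 and 130 with all C1q genes. Fewer genes could be read in the thinned and restricted sets (273 at 2000 UMIs, 2638 with all C1q genes). The mean of per-cell CPM gives no share. Of 86 log2 ratios of lists and named genes, 72 had no counted change of sign. A change was counted only where the main interval excluded equality. Changes of other ratios were not counted, such as the Gpr34/Fcrls list in SPP1-nAb, from -0.13 to 0.12 with all C1q genes. The cause of the changes was not tested. With 4 of 5 phagocyte genes, the interferon list in SPP1-nAb turned to 0.25, the MHC class II list in IgG to -0.027, and between libraries in cycling cells the MHC class II list to 0.13 and the circulating monocyte list to -0.39. Without cells with 2 markers of another type, interferon was 0.73 in SPP1-nAb and 0.56 between libraries, resident 0.19 in both IgG and SPP1-nAb, Gpr34/Fcrls 0.50 in IgG, MHC class II -0.020 in SPP1-nAb and circulating monocyte -0.19 between libraries. At 2000 UMIs, interferon was 0.066 in SPP1-nAb and 0.26 between libraries, Gpr34/Fcrls 0.17 in IgG, MHC class II -0.30 and -0.32, circulating monocyte -0.0062 and Cd209a 0.053 between libraries, and Col1a1 2.19 in SPP1-nAb. At 4000 UMIs, Gpr34/Fcrls was 0.44 in IgG. By the mean of per-cell CPM, interferon between libraries was 0.086. With all C1q genes, interferon was 0.47 in SPP1-nAb and 0.094 between libraries, MHC class II -0.38 in IgG and 0.34 between libraries, circulating monocyte -0.15 and Cd209a 3.15 between libraries. Without dendritic-cell genes, interferon was 0.076 in SPP1-nAb, Gpr34/Fcrls 0.15 in IgG and MHC class II -0.10 in SPP1-nAb. With 3 of 7 cycle genes, Col1a1 was 2.12 in IgG and 0.70 in SPP1-nAb and Thbs4 0.87 in IgG. With the highest doublet scores removed, Runx2 between libraries was 0.36. With 126 and 169 cells, shares near 1% carry intervals of about 0.3 points, and genes with few UMIs have no readable ratio.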
